A study of Mus musculus with 3 samples.

Results

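The genes described here are 10 members of the heterogeneous nuclear ribonucleoprotein (hnRNP) family, Hnrnpa1, Hnrnpa2b1, Hnrnpa3, Hnrnpab, Hnrnpc, Hnrnpd, Hnrnpf, Hnrnpk, Hnrnpl and Hnrnpu, among 21951 protein-coding genes of GENCODE M21. The family was selected on a measured value, because the strongest NF-Y-ChIP peak of the whole list lies at the Hnrnpab promoter, so the rank of that peak is a description and no test was made on it. A gene was given every peak in its body or in the 5 kb before its start. The chromatin came from embryonic brain cortex of mice at E13.5, and the labels give no genotype, strain or treatment. There were 3 libraries, 1 of input chromatin, 1 of NF-Y-ChIP with an antibody against the NF-YC subunit and 1 of H3K4me3-ChIP. The peak lists of NF-Y-ChIP (733 peaks) and H3K4me3-ChIP (18816 peaks) were analysed. With 1 library per antibody there was no replicate error, no p-value was computed, and a gene without a peak is a gene at which none was called at an unknown depth.

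The hnRNPs are abundant nuclear proteins that coat nascent transcripts and take part in splicing, nuclear export, localization and decay of mRNA. NF-Y is a trimeric transcription factor of the NF-YA, NF-YB and NF-YC subunits that binds the CCAAT box, often in proximal promoters, and H3K4me3 is a histone mark of active promoters. NF-Y acts in many cell types, dividing neural progenitors of the cortex among them.

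The promoter that carries the peak of Hnrnpab is shown first, as the 250 bases before its annotated start on GRCm38 (chr11:51606848-51607097, minus strand). It is written 5′ to 3′ on the strand of the gene, with every CCAAT and its reverse complement ATTGG in capitals. The promoters of Hnrnpc (chr14:52104029-52104278, minus strand) and Hnrnpa1 (chr15:103240182-103240431, plus strand) follow, because each holds 4 such boxes and an NF-Y-ChIP peak was called at the former only. For Hnrnpa3 the 101 bases centred on its NF-Y-ChIP summit are given (chr2:75658985-75659085, plus strand).
Hnrnpab promoter: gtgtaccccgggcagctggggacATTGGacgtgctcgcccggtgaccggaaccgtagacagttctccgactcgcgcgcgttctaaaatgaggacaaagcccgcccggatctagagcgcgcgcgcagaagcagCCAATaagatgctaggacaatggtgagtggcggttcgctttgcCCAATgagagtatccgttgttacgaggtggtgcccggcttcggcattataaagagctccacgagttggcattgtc
Hnrnpc promoter: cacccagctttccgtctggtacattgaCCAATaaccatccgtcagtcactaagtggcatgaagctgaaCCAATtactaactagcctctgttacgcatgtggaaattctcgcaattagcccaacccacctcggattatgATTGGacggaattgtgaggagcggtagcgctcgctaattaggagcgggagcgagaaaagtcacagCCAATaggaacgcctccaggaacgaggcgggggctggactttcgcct
Hnrnpa1 promoter: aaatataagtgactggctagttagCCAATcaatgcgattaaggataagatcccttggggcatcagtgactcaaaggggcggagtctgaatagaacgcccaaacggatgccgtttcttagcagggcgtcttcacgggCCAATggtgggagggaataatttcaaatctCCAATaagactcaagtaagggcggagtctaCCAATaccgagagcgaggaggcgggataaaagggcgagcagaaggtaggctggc
Hnrnpa3 summit: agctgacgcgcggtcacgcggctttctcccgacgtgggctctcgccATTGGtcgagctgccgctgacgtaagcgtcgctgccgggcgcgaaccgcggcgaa

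NF-Y-ChIP peaks were called at 3 of the 10 genes, Hnrnpab, Hnrnpa3 and Hnrnpc, and at none of the other 7. Among all protein-coding genes, 3.69% had an NF-Y-ChIP peak by the same rule, and among those that also had an H3K4me3-ChIP peak the share was 5.6%. The share of 30% in the family had a Wilson 95% interval of 10.8% to 60.3%, which covers counting error only, and nothing is read from it since the family was chosen through its leading peak. Each of the 3 genes had a single peak, and all 3 summits lay upstream of the start.

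Hnrnpab encodes hnRNP A/B, an RNA-binding protein that takes part in mRNA processing and in mRNA transport in neurons. Its peak (chr11:51606773-51607146, 374 bp wide) had a fold enrichment of 53.1, that is, its summit signal divided by the background around it. It ranked 1 of 733 both by fold enrichment and by p-value, with a −log10 p of 170. The peaks ranked next in the list had fold enrichments of 43.7 and 39.1, and the median of the list was 6.75. Hnrnpab exceeded the peak at rank 2 by 1.21-fold and Hnrnpa3, the next member of its family, by 8.17-fold. The summit lay 85 bp upstream of the start, and all 3 annotated Hnrnpab transcripts share that start. By the same rule the peak was assigned to no other gene.

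Hnrnpa3 encodes a close relative of hnRNP A1 and A2 that binds RNA in the nucleus and cytoplasm. Its peak (chr2:75658882-75659190) had a fold enrichment of 6.50 and rank 383, with a −log10 p of 9.08 and a summit 226 bp upstream of the start. That peak was also assigned to Gm24574, an annotated microRNA gene whose start lies in the same H3K4me3-ChIP peak. Hnrnpc encodes the hnRNP C proteins, which bind uridine tracts in nascent transcripts. Its peak (chr14:52104109-52104434) had a fold enrichment of 6.04 and rank 442, with the same −log10 p of 9.08 and a summit 295 bp upstream. Both fold enrichments were below the median of the list, whereas that of Hnrnpab was its maximum. Of the 632 NF-Y-ChIP summits that lay at most 1 kb from an annotated transcript start, 31.2% lay farther upstream than the summit of Hnrnpab. The start nearest to the Hnrnpa3 summit was that of Gm24574 at 209 bp, and 8.70% of the summits lay at least that far upstream of theirs. For Hnrnpc, at 295 bp, this share was 4.75%.

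**Figure D1:**
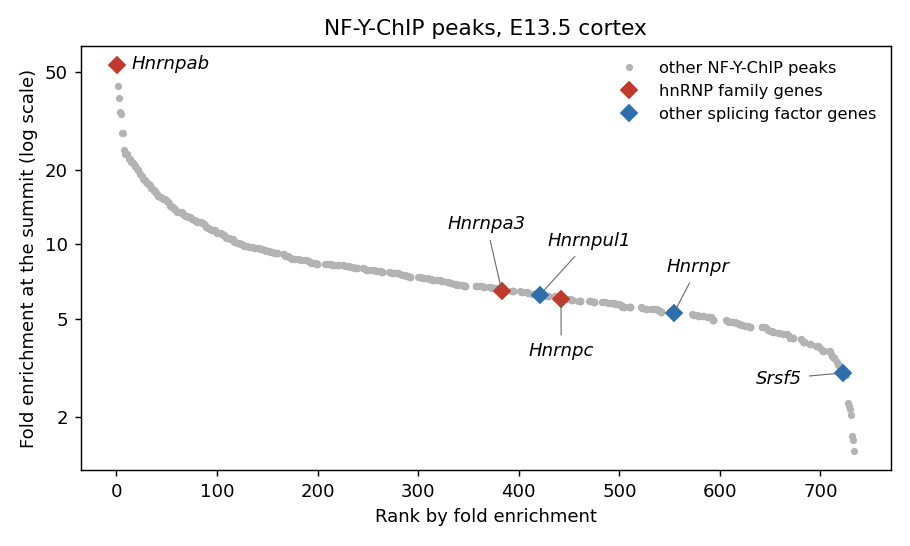
Fold enrichment of all 733 NF-Y-ChIP peaks (y axis, log scale) against their rank (x axis), with the peaks of the 10 hnRNP family genes in red and those of other splicing factor genes in blue. Hnrnpab stands at 53.1 at rank 1, and Hnrnpa3 (6.50) and Hnrnpc (6.04) lie in the lower part of the list.

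The CCAAT boxes at these summits differed in number, position and strand. At Hnrnpab 2 boxes lay within 100 bp of the summit, and both read CCAAT on the strand of the gene, as the capitals near the centre of its promoter show. They start 118 and 75 bp upstream of the gene start, 43 bp apart, and their nearest bases lay 29 bp and 10 bp from the summit on either side. The third box of the peak reads ATTGG, begins 227 bp upstream and is 138 bp from the summit. Across the list, 274 peaks had 2 boxes within 100 bp of the summit, 210 had 1, 197 had 3 or more and 52 had none. Neighbouring boxes in these windows made 752 pairs with a median spacing of 37 bp and an interquartile range of 30 to 51 bp, in which the 43 bp of Hnrnpab falls. A spacing within 2 bp of 43 bp was found in 93 pairs (12.4%), and in 75 of these both boxes had the same orientation as each other, against 64.2% of all pairs.

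At Hnrnpa3 the summit base itself fell in a box that reads ATTGG, and the other box of that peak was 101 bp away. At Hnrnpc none lay within 50 bp of the summit. The 3 boxes of the Hnrnpc peak were 72, 113 and 183 bp from it, all on the side of the gene start. A box within 50 bp of the summit was thus found in 2 of the 3 peaks of the family, and in 88.1% of all NF-Y-ChIP peaks. None of the 3 boxes in the Hnrnpab peak and none of those at Hnrnpc matched the extended NF-Y consensus RRCCAATSR, in which the bases beside the core are also set, while the box at the Hnrnpa3 summit did. The share of all NF-Y-ChIP peaks with such a match is not given here. Peaks with more boxes within 100 bp tended to a higher fold enrichment, apart from the class with 3, but the classes overlapped widely. The median fold enrichment was 5.40 for peaks with 0 boxes, 6.49 for 1, 6.91 for 2, 6.75 for 3 and 7.41 for 4 or more, and the interquartile range with 2 boxes, 5.56 to 9.30, lies far under the value of Hnrnpab.

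The promoter window of each gene, from 250 bases before the annotated gene start to 50 after it, was then searched for CCAAT and ATTGG on both strands without regard to peaks. The family held 14 boxes in 5 genes, Hnrnpa1 (4), Hnrnpc (4), Hnrnpab (3), Hnrnpa3 (2) and Hnrnpa2b1 (1), and 0 in the windows of Hnrnpd, Hnrnpf, Hnrnpk, Hnrnpl and Hnrnpu. Among all protein-coding genes 39% had at least 1 box in this window, and 1.15% had 4 or more. All 3 family genes with an NF-Y-ChIP peak thus had boxes at the gene start, and of the 7 without a peak 2 had boxes and 5 had none.

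Across 14352 protein-coding genes that carried H3K4me3, the share with an NF-Y-ChIP peak was 2.27% (Wilson 95% interval 1.98% to 2.60%) with 0 boxes and 5.12% (4.44% to 5.89%) with 1. It was 15.4% (13.6% to 17.5%) with 2 boxes, 26% (22% to 30.4%) with 3 and 49.6% (43.1% to 56.0%) with 4 or more. These intervals do not overlap and cover counting error only. Hnrnpc and Hnrnpa1 both belong to the 226 genes with 4 or more boxes, of which 112 had a peak, and they fell on different sides.

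**Figure D2:**
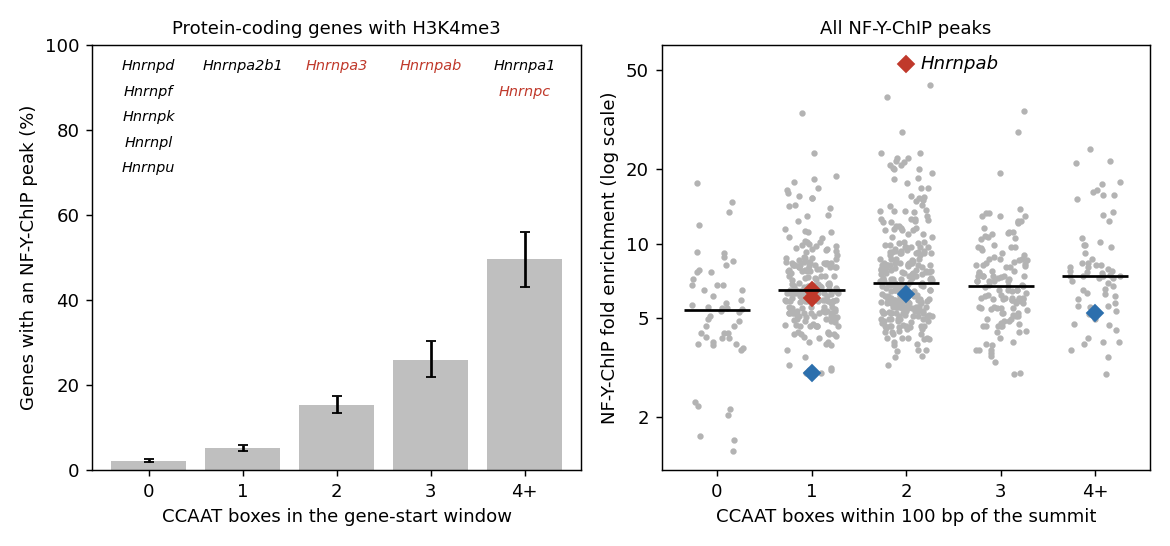
Left, share of protein-coding genes with H3K4me3 that had an NF-Y-ChIP peak (bars, %, with Wilson 95% intervals) by the number of CCAAT boxes in the gene-start window, with the 10 family genes named above their class and those with a peak in red. Right, fold enrichment of each NF-Y-ChIP peak (log scale) by boxes within 100 bp of its summit, with class medians as lines, family peaks in red and those of other splicing factor genes in blue. The share rises from 2.27% to 49.6% across the classes, while Hnrnpab lies above all other peaks, also those with 4 or more boxes.

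Hnrnpa1 encodes hnRNP A1, a splicing repressor and one of the most abundant members of the family. Its 4 boxes all read CCAAT on the strand of the gene and begin 226, 114, 84 and 54 bp upstream of the start, so that the last 3 are spaced at 30 bp. The boxes at 226 and 114 bp match the extended consensus, which no box of Hnrnpab does. No NF-Y-ChIP peak was called there. The nearest summit was 32174 bp downstream of the Hnrnpa1 start, in a peak of fold enrichment 15.2 and rank 48 that lay 108 bp from a start of Copz1, a gene for a coatomer subunit. Hnrnpa2b1, which encodes the A2 and B1 proteins known for binding trafficking signals in mRNA, had a single box that reads ATTGG and begins 51 bp upstream. The nearest NF-Y-ChIP summit was 2251793 bp from its start. For the other 5 genes without a peak, the nearest summit lay between 628610 bp (Hnrnpl) and 4662478 bp (Hnrnpf) from the gene start. For Hnrnpa3, Hnrnpc and Hnrnpab the nearest summit beside that of their own peak was 44167, 1179123 and 1314457 bp from the start. No NF-Y-ChIP peak therefore lay just outside the 5 kb limit at the 10 genes, and the 3 peaks inside it all had summits within 295 bp of the start.

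The count of boxes depended on which start was used. Hnrnpab has 1 annotated transcript start, whereas Hnrnpk has 32, Hnrnpl 13, Hnrnpd and Hnrnpa2b1 11 each, and Hnrnpf and Hnrnpc 10 each. In the RefSeq promoters of the 10 genes, which all matched by symbol, the start lay within 50 bp of the GENCODE gene start for 8 genes, and 8 genes held a box, against 42.1% of the protein-coding genes in that table. Hnrnpl encodes a splicing regulator that binds CA repeats. Its RefSeq start lay 2349 bp inside the GENCODE gene and its window held 4 boxes, which made Hnrnpl the third member with 4, and no NF-Y-ChIP peak was called there either. These boxes begin 2185, 2208, 2232 and 2333 bp downstream of the GENCODE start, the first reads ATTGG, and none matches the extended consensus. For RefSeq windows no share of all genes with 4 or more boxes is given here. Hnrnpk encodes a protein that binds cytidine-rich RNA and DNA. Its RefSeq start lay 1226 bp inside the gene, and its window held 2 boxes 41 bp apart, both reading CCAAT on the strand of the gene and both matching the extended consensus, a spacing close to that of Hnrnpab. The Hnrnpc peak, with a fold enrichment of 6.04, likewise held 2 boxes reading CCAAT on the gene strand 41 bp apart. With any annotated transcript start allowed, all 10 genes had a box, as did 61.8% of all protein-coding genes, and of the 329 marked genes with 4 or more boxes at some start 41.9% had an NF-Y-ChIP peak (Wilson 95% interval 36.7% to 47.3%).

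**Figure D3:**
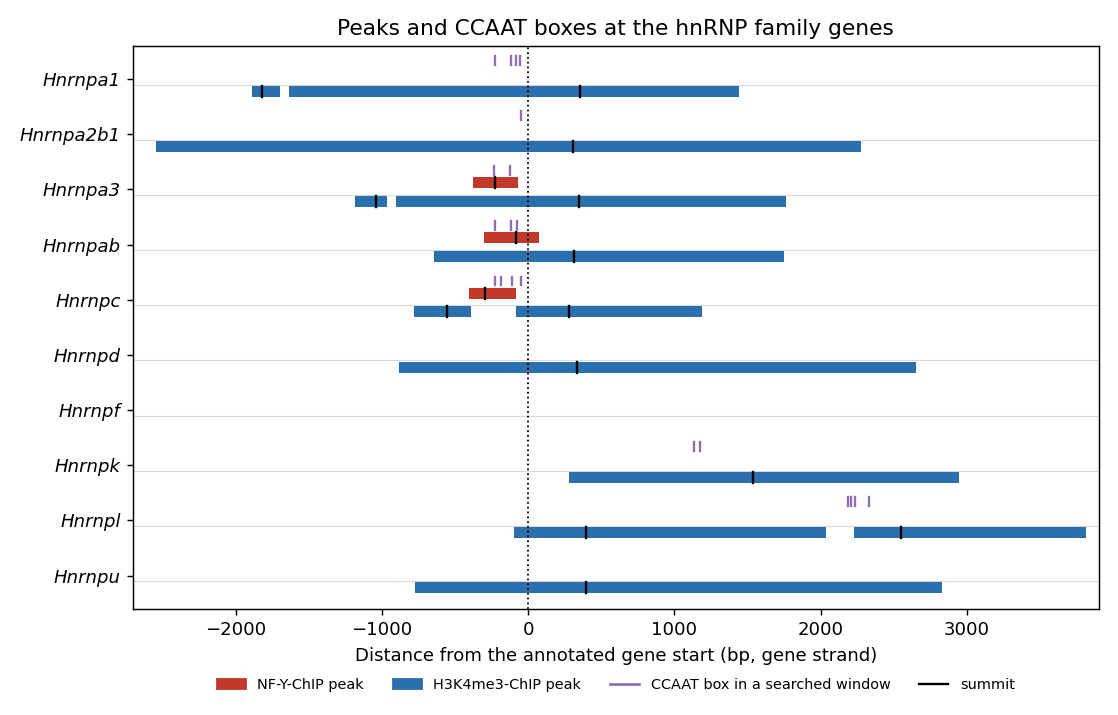
Position of NF-Y-ChIP peaks (red), H3K4me3-ChIP peaks (blue), their summits (black ticks) and CCAAT boxes of the GENCODE promoter window and, for Hnrnpl and Hnrnpk, the RefSeq window (purple ticks) at the 10 genes, in bp from the annotated gene start on the strand of the gene, which is the dotted line. The 3 NF-Y-ChIP peaks lie just upstream of the start, the main H3K4me3 summits lie downstream, and the peaks of Hnrnpf fall outside the plotted range.

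H3K4me3-ChIP peaks were found at all 10 genes, against 65.4% of all protein-coding genes, and there were 16 such peaks in all. Taking the strongest peak of each gene, the fold enrichment ran from 30.7 to 87.9 with a median of 50.3, against a median of 40.1 over all protein-coding genes with a peak. It was above that median at 6 of the 10 genes. In all 10 the summit of the strongest peak lay downstream of the start, as it did at 84.8% of all protein-coding genes with H3K4me3. At Hnrnpk, Hnrnpl and Hnrnpf that summit was 1535, 2551 and 16784 bp from the gene start. It was 106, 152 and 127 bp from another annotated start of the same gene.

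Among the 3 genes with an NF-Y-ChIP peak the fold enrichment of the strongest H3K4me3-ChIP peak was 72.6 at Hnrnpab, 65.9 at Hnrnpa3 and 43.7 at Hnrnpc. Among the 7 without, it was 87.9 at Hnrnpu, 73.2 at Hnrnpk, 57.0 at Hnrnpd, 39.7 at Hnrnpl, 39.0 at Hnrnpf, 35.8 at Hnrnpa2b1 and 30.7 at Hnrnpa1. The ranges of both sets overlapped, and 2 genes without an NF-Y-ChIP peak, Hnrnpu and Hnrnpk, were above Hnrnpab. The medians were 65.9 and 39.7. Over all protein-coding genes with H3K4me3 they were 47.2 for the 803 with an NF-Y-ChIP peak and 39.6 for the 13549 without. Hnrnpab, through whose rank 1 of 733 for NF-Y-ChIP the family was selected, stood at rank 430 of 18816 for H3K4me3. Hnrnpu, which encodes a scaffold attachment factor that binds RNA and chromatin, stood at rank 12 for H3K4me3, with no NF-Y-ChIP peak and no box at its start.

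**Figure D4:**
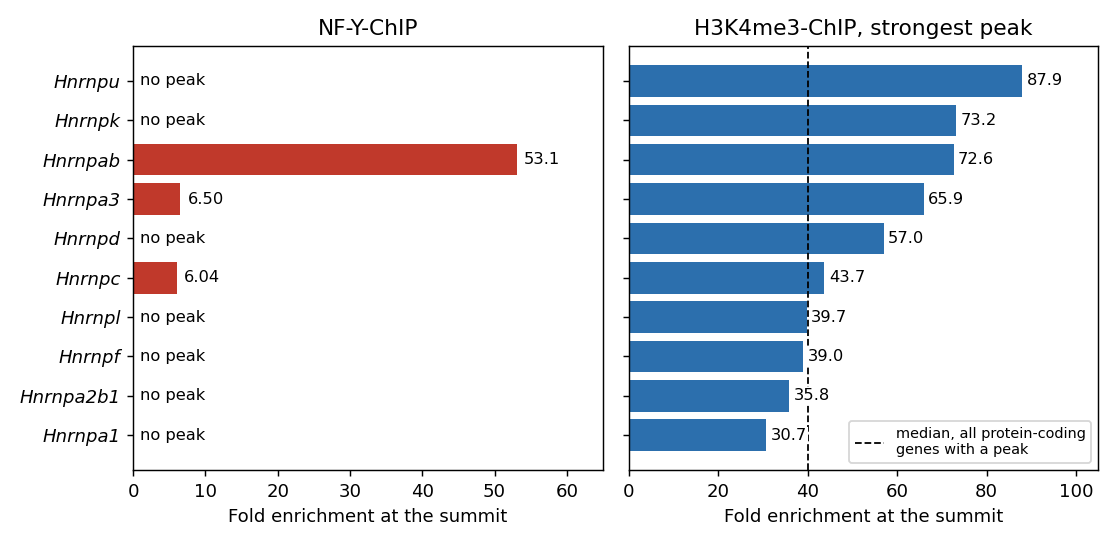
Fold enrichment at the summit of the NF-Y-ChIP peak (left) and of the strongest H3K4me3-ChIP peak (right) of the 10 genes, 1 library each, ordered by H3K4me3. The dashed line is the median of all protein-coding genes with H3K4me3 (40.1). Hnrnpab has the longest bar on the left (53.1), and Hnrnpu (87.9) and Hnrnpk (73.2) exceed it on the right without an NF-Y-ChIP peak.

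The widths of the H3K4me3-ChIP peaks gave another order. The widest was that of Hnrnpa2b1 with 4817 bp, rank 73 by width, and it also covered the start of Cbx3, a heterochromatin protein gene on the opposite strand 466 bp away. The main Hnrnpa1 peak of 3081 bp likewise covered the start of Cbx5, another heterochromatin protein gene on the opposite strand, 616 bp away. The 3532 bp peak of Hnrnpd, whose product binds AU-rich elements and takes part in mRNA decay, covered the start of 4930524J08Rik at 123 bp. The 2664 bp peak of Hnrnpk covered that of Rmi1, a genome stability gene, at 1095 bp. These were 4 of the 10 genes, against 23.7% of all protein-coding genes with H3K4me3. All 4 partners lie on the strand opposite to the hnRNP gene, which held for 78.1% of all genes with such a partner. The H3K4me3-ChIP peaks of Hnrnpab (2396 bp), Hnrnpa3 (2663 bp) and Hnrnpc covered no other protein-coding start. Neither did that of Hnrnpu, which at 3604 bp was the next widest after Hnrnpa2b1 and wider than the shared peaks of Hnrnpd, Hnrnpa1 and Hnrnpk. At the shared promoters the part of each gene in the width or the fold enrichment cannot be told apart in these lists. All 4 hnRNP genes concerned had no NF-Y-ChIP peak.

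The relation of the NF-Y-ChIP peaks to the H3K4me3-ChIP peaks differed among the 3 genes. The whole NF-Y-ChIP peak lay inside an H3K4me3-ChIP peak at Hnrnpab (374 bp) and Hnrnpa3 (309 bp). The H3K4me3 summit followed 401 bp downstream of the NF-Y summit at Hnrnpab and 575 bp downstream at Hnrnpa3. At Hnrnpc only 16 bp of the 326 bp peak overlapped, since it bridged a gap of 310 bp between an H3K4me3-ChIP peak of 1272 bp over the start (43.7) and one of 390 bp upstream (13.2). All 3 boxes of the Hnrnpc peak lay in that gap, and the fourth box of the promoter, 47 bp upstream of the start, lay inside the downstream H3K4me3-ChIP peak. Of all 733 NF-Y-ChIP peaks 645 overlapped an H3K4me3-ChIP peak, so such overlap was common in the list, and 28 touched at least 2. Hnrnpl had a gap of 189 bp between its H3K4me3-ChIP peaks (28.3 and 39.7) without an NF-Y-ChIP peak, and its boxes at 2185 and 2208 bp lay in it. Hnrnpf, which encodes a protein that binds guanosine tracts, had no H3K4me3-ChIP peak at its annotated gene start. Its peaks had summits 6091, 6922 and 16784 bp downstream (10.4, 32.2 and 39.0). These summits lay 375, 397 and 127 bp from other annotated Hnrnpf starts. Minor upstream H3K4me3-ChIP peaks were also listed at Hnrnpa1 (6.29) and Hnrnpa3 (5.01).

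Other lists of RNA-processing genes were set beside the family. Of 17 further hnRNP genes 2 had an NF-Y-ChIP peak, 11.8% (Wilson 95% interval 3.29% to 34.3%), an interval that covers the 5.6% of all protein-coding genes with H3K4me3. Hnrnpul1, an hnRNP U relative, had a peak of fold enrichment 6.25 (rank 421) with a summit 129 bp upstream, and Hnrnpr, a close relative of the mRNA-binding protein hnRNP Q, had a peak of 5.25 (rank 554) with a summit 103 bp upstream that was also assigned to the pseudogene Gm13013. Both had 4 boxes in the promoter window. The bases around their summits are given for comparison with those of Hnrnpab, at much lower enrichment (Hnrnpr, chr4:136310789-136310889, plus strand, and Hnrnpul1, chr7:25754836-25754936, minus strand).
Hnrnpr summit: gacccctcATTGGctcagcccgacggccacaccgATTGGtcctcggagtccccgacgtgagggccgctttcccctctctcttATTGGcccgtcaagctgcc
Hnrnpul1 summit: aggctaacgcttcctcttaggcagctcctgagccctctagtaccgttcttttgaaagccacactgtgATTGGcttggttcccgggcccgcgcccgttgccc

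The Hnrnpr window shows 3 boxes, all reading ATTGG on the strand of the gene, and 4 lay within 100 bp of the summit, of which 3 matched the extended consensus. The Hnrnpul1 window shows 1, and 2 lay within 100 bp. All 17 further hnRNP genes had H3K4me3, and of the 10 with a box in the promoter window 8 (80%) had no NF-Y-ChIP peak, against 89.0% of the 5464 protein-coding genes with H3K4me3 and a box. Of 13 genes for SR proteins, which bind exonic enhancers and promote splicing, 1 had an NF-Y-ChIP peak (7.69%, interval 1.37% to 33.3%), near the same 5.6%. This was Srsf5, with a fold enrichment of 3.02, rank 722 and a summit 726 bp downstream of the gene start and 146 bp upstream of the nearest annotated Srsf5 transcript start, in a peak also assigned to the noncoding gene Gm20337. The Srsf5 peak did not reach q < 0.05. Of 12 genes for protein components of the spliceosomal snRNPs 0 had an NF-Y-ChIP peak, which allows a share of up to 25% and so also 5.6%. The median of the strongest H3K4me3 fold enrichments was 52.5 for the further hnRNP genes and 50.5 for the SR protein genes, near the 50.3 of the family, and 43.4 for the snRNP genes, between that and the 40.1 of all genes with H3K4me3.

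The genes most like Hnrnpab were sought by NF-Y-ChIP fold enrichment, H3K4me3-ChIP fold enrichment and H3K4me3 width, each on the log2 scale and divided by its SD, over the 693 protein-coding genes that had a start at most 1 kb from an NF-Y-ChIP summit. The nearest was Iars, an isoleucyl-tRNA synthetase gene, with an NF-Y-ChIP fold enrichment of 39.1 (rank 3), an H3K4me3 fold enrichment of 72.9 and a width of 1615 bp, at a distance of 1.20. Hmmr, a gene for a hyaluronan receptor that also acts at the mitotic spindle, and Nudcd2 followed at 1.54, and they share 1 NF-Y-ChIP peak of 28.3 (rank 7) with 3 boxes within 100 bp. Iars had 2 boxes there, as had Hnrnpab.

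As a check of the tissue, 6 of 8 cortical marker genes had an H3K4me3-ChIP summit within 1 kb of a start, against 62% of all protein-coding genes, and 0 of 6 markers of other tissues had one. By the 5 kb rule the counts were 8 of 8 and 1 of 6, against 65.4% of all protein-coding genes. With so few markers and such common marking, the cortical markers alone cannot identify the tissue.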

How the data were processed

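ChIP-seq of E13.5 mouse cortices was analysed from the 2 peak lists, 1 library per antibody, and the Input, which has no list of its own here, entered no comparison. After trimming with Trimmomatic, the authors aligned the reads to mm10 (GRCm38). The NF-Y-ChIP list was thresholded by the authors on the p-value (0.001) and that of H3K4me3-ChIP on the q-value (0.05). The submitters' processing notes name FastQC, Bowtie2 2.2.8 and MACS2 2.1.2. The study took the Input as its negative control, and whether the peak calling used it is not given in the sources used here. The deposited H3K4me3-ChIP list differs in its number of peaks from the study's text, and it was used as deposited. The deposited fold enrichment is a ratio of summit signal to local background, and the deposited −log10 values belong to its p-value and q-value. In the deposited NF-Y-ChIP list the score follows the −log10 p-value, whereas in that of H3K4me3-ChIP it follows the −log10 q-value, which told them apart. The lists hold no read counts, so depth is unknown, and thresholds and read depth set which peaks exist.

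Genes and transcript starts came from GENCODE M21, sequences from GRCm38 and further starts from the RefSeq promoter table (GRCm38.p6). Overlap was counted from 1 bp, and ranks are in descending order. The 10 genes, the other gene lists and all comparisons were chosen with earlier results of these data known. Named genes are the 10 members, genes of the other lists with an NF-Y-ChIP peak, genes assigned to the same peaks, the 3 genes most like Hnrnpab, and the nearest peaks outside the 5 kb limit. Genes sharing an H3K4me3-ChIP peak were named after their values were seen. The overlap, motif and distance functions were tested on simulated data. Python 3.11.15, NumPy 2.4.6, pandas 2.3.3, SciPy 1.17.1, pysam 0.24.0 and matplotlib 3.10.9 were used.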

Additional observations from a re-analysis of the deposited data

How the results depend on the processing

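With 1 library per antibody no replicate could be left out, and peak lists carry no read counts with which to judge depth. No paired analysis was possible because the groups hold 1 library each and no result came from a test. With only NF-Y-ChIP peaks at or above the median fold enrichment, 1 of the 10 genes (Hnrnpab) had a peak, against 1.94% of protein-coding genes, and 0 of the further hnRNP genes and 0 of the SR protein genes did. Srsf5 was also lost with q < 0.05, which left 0 SR protein genes. With the extended consensus, a box near the summit remained at 1 of the 3 NF-Y-ChIP peaks (Hnrnpa3), 0 boxes remained at the Hnrnpab summit and 2 genes (Hnrnpa1 and Hnrnpa3) had a box in the promoter window. With any transcript start, 10 genes had a box. By −log10 p the Hnrnpab peak exceeded the next member 18.8-fold in place of 8.17-fold. The median H3K4me3 fold enrichment of the family was 1.25 times that of all marked genes, and by the sum of peak widths this ratio was 2.17. The count of markers of other tissues with an H3K4me3-ChIP peak went from 0 to 1 of 6 with the 5 kb rule. Of 35 alternatives the other 24 stayed within 1.5 times the reported count or, for the H3K4me3 ratio, within the members' spread.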
